A study of Mus musculus with 19 samples.

Results

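The genes described here encode the proteins of the cornified envelope that lie in the epidermal differentiation complex, a cluster of genes on mouse chromosome 3. Members were the protein-coding genes whose symbol begins with Lce or Sprr, together with Flg, Flg2, Hrnr, Rptn, Lor, Ivl, Kprp and Crct1. This rule uses names and gene classes and no measured value, and it found 44 genes of the 50686 in the table of skin transcripts. They are 14 Lce1 genes, 6 Lce3 genes, Lce6a, 11 Sprr2 genes, 4 other Sprr genes (Sprr1a, Sprr1b, Sprr3, Sprr4), 4 filaggrin-type genes (Flg, Flg2, Hrnr, Rptn), and the 4 genes Lor, Ivl, Kprp and Crct1. Of the 44 members, 43 passed the filter on low values (at least 1 TPM in at least 3 mice), and Sprr3 did not, with a highest value of 2.47 TPM in any mouse. TPM is a transcript level that is corrected for gene length and brought to a common total in every mouse, so levels of different genes can be compared.

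Whole skin was taken from 19 mice on day 42 after bone marrow transplantation (BMT) and its mRNA was sequenced. All recipients were irradiated female BALB/c mice given bone marrow with its T cells largely removed, plus splenocytes, from male donors. B10.D2 donors, which differ from BALB/c only at minor histocompatibility antigens, caused chronic graft-versus-host disease of the sclerodermatous type (Scl-cGVHD, below GVHD), and BALB/c donors gave the syngeneic control. The B10.D2 donors and the BALB/c recipients were 8 to 12 weeks old. Mice received repeated intraperitoneal injections from day 7 to day 35 of the anti-mCX3CL1 mAb (clone 5H8-4), which blocks the chemokine CX3CL1, or of a control IgG (an anti-DNP mAb). The groups were syngeneic IgG (n = 3), syngeneic mAb (n = 5, dose not given in the labels), GVHD IgG (n = 3), GVHD with 0.5 mg mAb per injection (n = 3) and GVHD with 1 mg (n = 5). All groups therefore share irradiation, BMT and a male graft in a female host, no group is untreated skin, and each library came from 1 mouse. Mice are numbered within their group only to name them.

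The cornified envelope is the protein shell that replaces the plasma membrane of a keratinocyte as it dies at the skin surface. Transglutaminases join its precursors: involucrin first, then loricrin, which makes up most of the shell, with small proline-rich (SPRR) and late cornified envelope (LCE) proteins as bridges and reinforcement. Filaggrin-type proteins are stored in granules, gather keratin filaments, and are later broken down into the compounds that hold water in the outer skin. In epidermis that is injured or inflamed, Sprr2, Sprr1b and Lce3 genes are known to be switched on, whereas Lor, Flg2 and most Lce1 genes belong to resting differentiation.

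The promoters of the Sprr2 genes are shown first because Sprr2 genes made up the largest part of the member transcripts in GVHD IgG skin. RefSeq promoters (build GRCm38.p6) were matched for 40 of the 44 members, and the 250 bases before the start of each were searched on both strands. The octamer ATTTGCAT was found in 7 of 10 Sprr2 promoters, 108 to 112 bases before the start, in 0 of the 30 other member promoters and in 1.6% of all 32841 promoters searched. It was not found in those of Sprr2a1, Sprr2a2 and Sprr2a3. These genes supplied most of the Sprr2 transcripts in GVHD IgG skin, a mean of 9883 of 11319.9 TPM. Each stretch below runs from 10 bases before the octamer to the last base before the start, with the octamer in capitals.
Sprr2b (chr3:92316587-92316704, + strand): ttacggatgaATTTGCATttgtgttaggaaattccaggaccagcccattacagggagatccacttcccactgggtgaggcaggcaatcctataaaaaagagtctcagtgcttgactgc
Sprr2d (chr3:92339022-92339139, + strand): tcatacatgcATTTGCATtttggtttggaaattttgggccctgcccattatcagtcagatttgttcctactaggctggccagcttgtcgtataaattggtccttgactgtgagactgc
Sprr2e (chr3:92352025-92352142, + strand): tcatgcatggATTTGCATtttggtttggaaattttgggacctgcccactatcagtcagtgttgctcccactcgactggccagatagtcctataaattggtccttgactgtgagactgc
Sprr2f (chr3:92365065-92365186, + strand): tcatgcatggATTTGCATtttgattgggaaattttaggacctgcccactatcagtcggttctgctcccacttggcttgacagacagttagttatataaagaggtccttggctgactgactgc
Sprr2h (chr3:92385566-92385684, + strand): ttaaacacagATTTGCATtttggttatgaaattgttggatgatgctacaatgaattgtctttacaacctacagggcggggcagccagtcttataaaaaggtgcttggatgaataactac
Sprr2i (chr3:92407873-92407990, + strand): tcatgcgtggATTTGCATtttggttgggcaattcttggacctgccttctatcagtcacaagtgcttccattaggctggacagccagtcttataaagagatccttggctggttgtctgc
Sprr2k (chr3:92432463-92432581, + strand): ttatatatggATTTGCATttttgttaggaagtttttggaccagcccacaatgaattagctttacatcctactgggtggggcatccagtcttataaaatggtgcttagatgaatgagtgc

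The AP-1 motif TGANTCA, which can be bound by pairs of Fos and Jun proteins, was found in 14 of the 40 member promoters (35%), against 6.75% of all promoters. It does not overlap the octamer in any promoter printed here. It was in the same 7 Sprr2 promoters, further upstream at 182 to 198 bases, and in those of Lor, Ivl, Sprr1a, Sprr1b, Flg, Flg2 and Rptn at 48 to 146 bases. None of the 13 Lce1 promoters, the 6 Lce3 promoters or the promoter of Lce6a held it. The STAT motif TTCNNNGAA was in the promoters of Lce1l and Sprr2a3 alone, 2 of 40 (5%, against 7.02% of all promoters). A match is a description of letters and not a site shown to be bound. The stretches of 6 genes that differ widely in their levels are given below in the same way, with the AP-1 motif nearest the start in capitals.
Flg (chr3:93273433-93273545, + strand): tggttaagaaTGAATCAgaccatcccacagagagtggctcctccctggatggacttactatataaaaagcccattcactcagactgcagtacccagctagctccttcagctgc
Flg2 (chr3:93197194-93197272, + strand): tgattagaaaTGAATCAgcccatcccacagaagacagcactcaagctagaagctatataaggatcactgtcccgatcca
Rptn (chr3:93393593-93393698, + strand): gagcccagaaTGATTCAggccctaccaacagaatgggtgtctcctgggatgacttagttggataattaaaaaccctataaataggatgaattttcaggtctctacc
Lor (chr3:92083143-92083200, - strand): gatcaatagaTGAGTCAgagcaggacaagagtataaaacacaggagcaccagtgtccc
Sprr1a (chr3:92485882-92486007, - strand): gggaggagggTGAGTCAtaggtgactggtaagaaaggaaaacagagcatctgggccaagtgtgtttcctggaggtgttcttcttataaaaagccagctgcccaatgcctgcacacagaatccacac
Sprr1b (chr3:92438780-92438900, - strand): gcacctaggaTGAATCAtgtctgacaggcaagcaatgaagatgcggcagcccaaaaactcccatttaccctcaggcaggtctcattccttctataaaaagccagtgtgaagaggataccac

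Several members are so alike that reads cannot always be assigned to one of them. The first 75 coding bases of 5 Sprr2 genes (GRCm38, GENCODE) are printed below, with capitals where a base differs from Sprr2a2.
Sprr2a2 (chr3:92253905-92253979, + strand): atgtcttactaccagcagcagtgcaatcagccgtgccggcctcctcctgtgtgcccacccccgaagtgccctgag
Sprr2a3 (chr3:92288588-92288662, + strand): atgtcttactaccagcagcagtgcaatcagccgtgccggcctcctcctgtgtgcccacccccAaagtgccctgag
Sprr2d (chr3:92340254-92340328, + strand): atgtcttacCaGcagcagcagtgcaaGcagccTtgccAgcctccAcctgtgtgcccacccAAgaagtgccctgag
Sprr2e (chr3:92352864-92352938, + strand): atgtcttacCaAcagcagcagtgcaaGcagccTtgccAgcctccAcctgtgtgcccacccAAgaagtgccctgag
Sprr2h (chr3:92386632-92386706, + strand): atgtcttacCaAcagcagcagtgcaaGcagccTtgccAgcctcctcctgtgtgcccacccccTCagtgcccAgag

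The whole coding sequence of Sprr2a1 (249 bases) is identical to that of Sprr2a2, Sprr2a3 differs from it at 1 of these 75 bases, and Sprr2d, Sprr2e and Sprr2h each at 8. Of all 100-base windows in the transcripts, as long as a read, 92.5% of those of Sprr2a1, 92.8% of Sprr2a2 and 36.2% of Sprr2a3 also occur in another gene. The shares were 24.1% to 43% for Lce3c, Lce3d, Lce3e and Lce3f, at most 4.9% for each Lce1 gene, and at most 1.16% for each of the other members. How RSEM split reads among Sprr2a1 to Sprr2a3, and among Lce3c to Lce3f, is therefore uncertain. Their summed TPM depends on the split through gene length. The lengths were 3003 bases for Sprr2a1, 722 for Sprr2a2 and 855.42 for Sprr2a3, and 491 to 611 for Lce3c to Lce3f.

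The alignment summary gave 22699740 to 38841010 read pairs per library (median 29298146), of which 5.99% to 7.66% mapped to several places. It names libraries by group and not by mouse, and TPM keeps no depth, so errors here come from the spread between mice. Tests were run in limma on log2(TPM + 1) over 16350 genes, with p-values adjusted by the Benjamini-Hochberg method over all of them and a threshold of 0.05. A member is called where its adjusted p is under that threshold, and log2 fold changes are on the log2(TPM + 1) scale, which understates changes of low genes. Keratinocyte markers were present in every mouse: the summed level of 16 pan-epidermal genes ranged from 7522 to 26961 TPM. Hair keratins stood apart in syngeneic mAb mice 4 and 5, with summed levels of 23974 and 14614 TPM against 10.4 to 17.5 TPM in the other 3 mice of that group, and results that rest on them are given without them.

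Envelope genes took a larger share of the transcripts in GVHD skin, and their mixture changed. All 44 members together made up 0.596% ± 0.0563 (SD, n = 3) of transcripts in syngeneic IgG mice and 0.708% ± 0.144 (n = 5) in syngeneic mAb mice. The share was 2.45% ± 1.15 (n = 3) in GVHD IgG mice, 2.42% ± 1.94 (n = 3) at 0.5 mg and 3.55% ± 1.36 (n = 5) at 1 mg. In syngeneic IgG skin, Lce1 genes supplied 43.1% ± 4.38 of the member transcripts, Lor, Ivl, Kprp and Crct1 30.5% ± 1.75, and Sprr2 genes 1.55% ± 0.244. In GVHD IgG skin, Sprr2 genes supplied 45.0% ± 6.59, Lce1 genes 14.3% (range 6.51% to 24.2%), and Lor, Ivl, Kprp and Crct1 7.99% ± 4.41. Sprr2 supplied at most 3.07% of the member transcripts in any syngeneic mouse and at least 13.4% in any GVHD mouse, so that these shares did not overlap. As skin was sequenced in bulk, fewer or more cells of a type and less or more RNA per cell cannot be told apart.

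**Figure D1:**
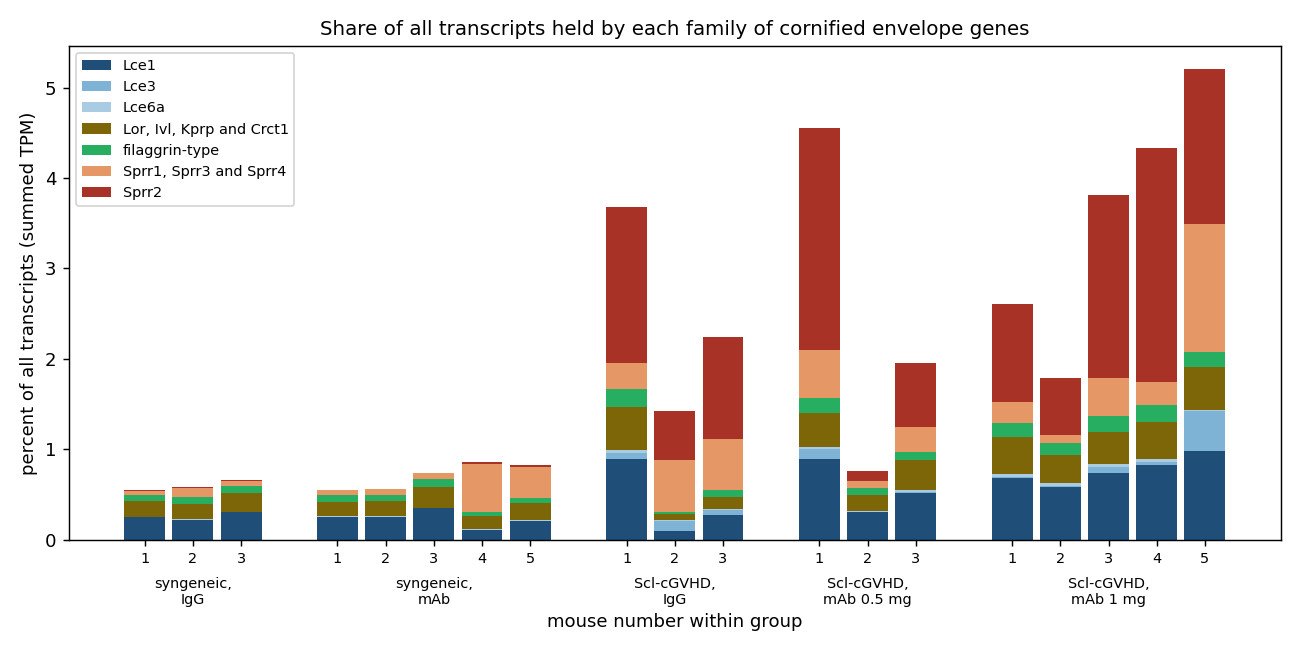
Summed TPM of each gene family, as a percent of all transcripts, in each of the 19 mice, as stacked bars from 0, in the 5 groups. Sprr2 genes summed to 45.4 to 254 TPM in syngeneic mice and to 1016 to 25921 TPM in GVHD mice, and the total of GVHD 0.5 mg mouse 2 is close to those of the syngeneic mice.

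In syngeneic IgG skin the members differed widely in level, and those highest there were not those highest in GVHD skin. Lor led at 1184 ± 235 TPM (SD, n = 3), followed by Lce1m, at 844 ± 185 TPM, and Flg2, at 669 ± 26.9 TPM, and the ranges of neighbours in this order overlap (1018 to 1453, 655 to 1025 and 645 to 698 TPM). At the other end, Lce3a, Lce3b, Sprr2j-ps and Sprr2k were listed at 0 in all 3 mice. In GVHD IgG skin, Sprr2a2 was highest at 7844 ± 5554 TPM (n = 3), followed by Sprr1a at 2612 ± 919.7, Sprr1b at 2087 ± 747 and Sprr2a3 at 2013 ± 1382 TPM, and the ranges of these 4 overlap. Flg2 stood at 190.1 ± 219.7 TPM and Lce1m at 251 ± 303 TPM.

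**Figure D2:**
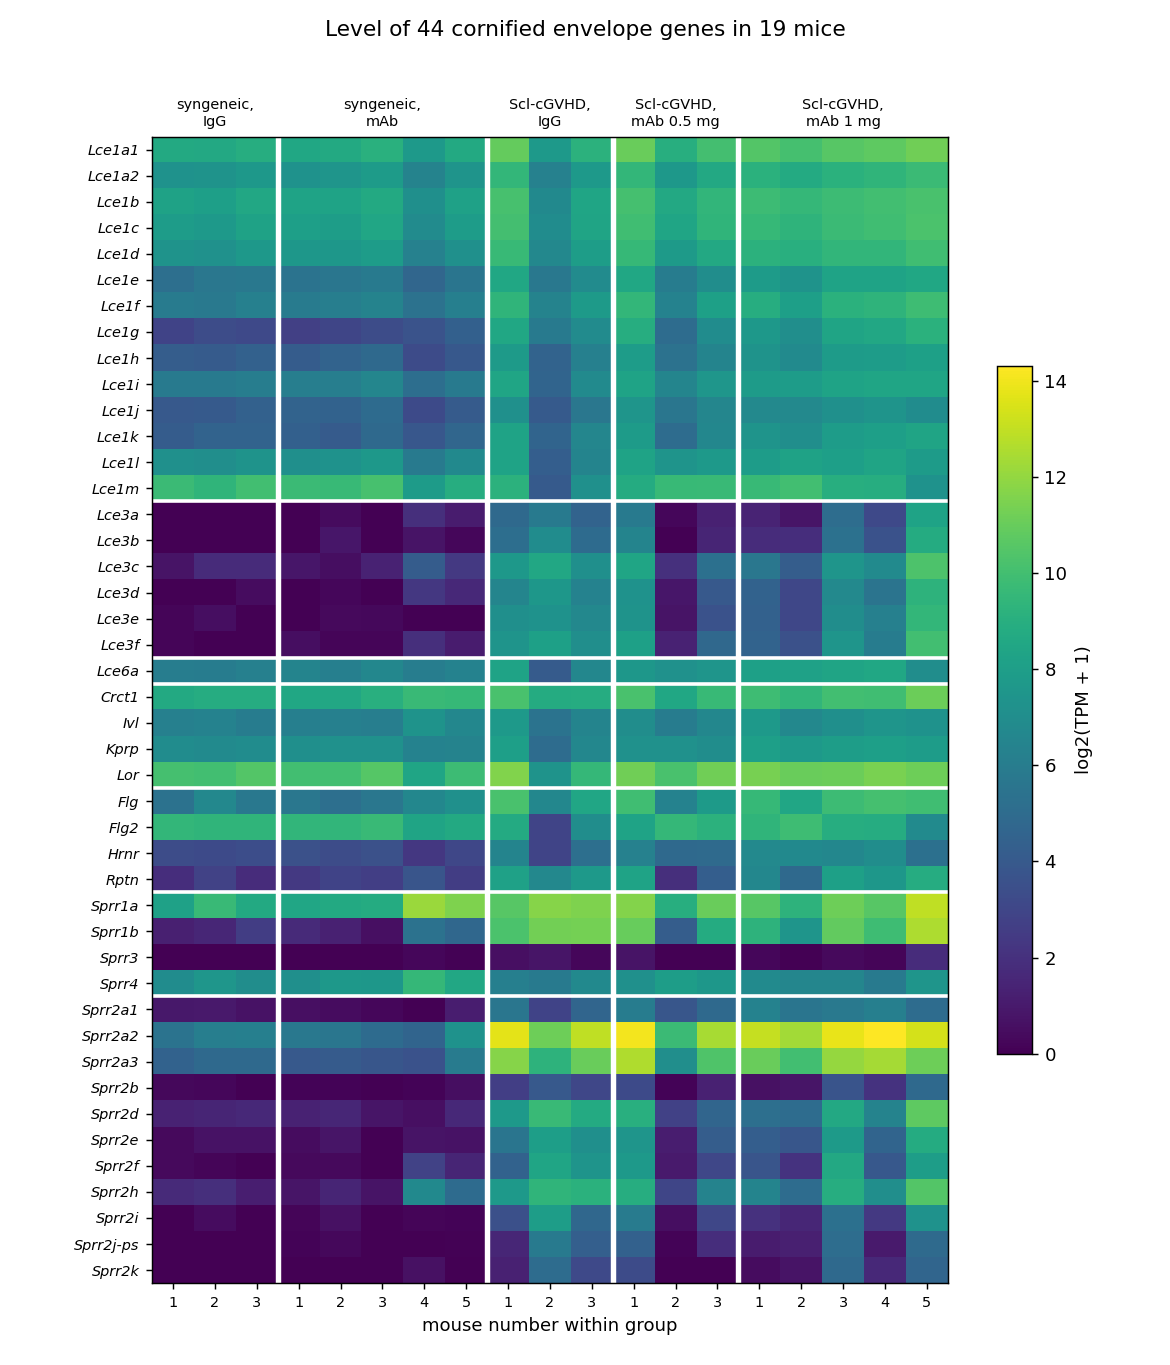
Levels of the 44 members, as log2(TPM + 1), in the 19 mice, ordered by family and group. Lce3 and Sprr2 genes are near 0 in most syngeneic mice and high in most GVHD mice, Lor, Kprp and most Lce1 genes are high in nearly all mice, and GVHD IgG mouse 2 is low in Flg2, Lce1m and Lor.

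The comparison of GVHD IgG with syngeneic IgG asked what the disease did to these genes under the control antibody. The members that rose were mostly of low level in syngeneic skin, chiefly Sprr2 and Lce3 genes and Sprr1b, while Flg2 and Lce1m fell. Of the 43 members tested, 22 were higher and 2 lower, against 6.84% of all genes called higher and 17.9% called lower. The median log2 fold change was 2.42 for the members and −0.33 for all genes tested. The latter was −0.00 with median-ratio factors, under which 22 members were higher and 1 lower, against 11.1% and 10.3% of all genes. Groups of 3 against 3 did not overlap for 25 members that were higher and 3 that were lower, against 10.4% and 41% of all genes. Without syngeneic IgG mouse 1 the count of higher members was 14, and 13 of the 24 calls held under every alternative, mice left out included.

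Sprr2 proteins are proline-rich bridges of the envelope, and 10 of the 11 Sprr2 genes were called higher. The calls of Sprr2b, Sprr2f, Sprr2i and Sprr2j-ps were lost in some fits with a mouse left out. Sprr2a2, the most abundant member, was at 43.08, 67.69 and 71.56 TPM in syngeneic IgG mice, and at 13399.97, 2292.04 and 7840.03 TPM in GVHD IgG mice. No syngeneic value came near a GVHD value, the log2 fold change was 6.69 (SE 0.90) and the adjusted p was 0.000401 in limma. Because reads of its near copies cannot always be separated, the sum of Sprr2a1, Sprr2a2 and Sprr2a3 is given too: 87.6 ± 19.1 TPM against 9883 ± 6956 TPM (n = 3 each). These genes differ in length, so the sum still depends in part on how reads were split. Sprr2a3 was at 21.72, 28.26 and 28.09 TPM in syngeneic IgG mice and at 3368.9, 606.67 and 2062.31 TPM in GVHD IgG mice (log2 fold change 5.91, SE 1.04, adjusted p 0.00182). Sprr2h, one of the genes with the octamer, went from 2.31, 2.79 and 1.34 TPM to 202.49, 662.96 and 572.82 TPM (7.11, SE 1.68, adjusted p 0.00846). In Sprr2a2 and Sprr2a3, GVHD IgG mouse 1 was highest and mouse 2 lowest, whereas in Sprr2h mouse 2 was highest and mouse 1 lowest. Sprr2k, at 13.9 ± 16.2 TPM in GVHD IgG and listed at 0 in every syngeneic IgG mouse, missed the threshold (adjusted p 0.0563), and no fold is given for it or for Sprr2j-ps.

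Among the other Sprr genes, Sprr1b, a cross-linked precursor that appears in stressed squamous epithelium, had the largest log2 fold change on the log2(TPM + 1) scale of the members with a level above 0 in syngeneic IgG skin. As a ratio of mean TPM it was 741, below the ratios of Lce3f (3842), Sprr2f (1185) and Lce3d (926), whose syngeneic levels were near 0. It was at 1.41, 1.9 and 5.14 TPM in syngeneic IgG mice and at 1227.67, 2448.42 and 2583.92 TPM in GVHD IgG mice, a log2 fold change of 9.14 (SE 1.56, adjusted p 0.0016). Its close relative Sprr1a was already abundant, at 294.61, 821.41 and 409.62 TPM, and was at 1570.99, 3314.73 and 2950.1 TPM in GVHD IgG mice. These groups did not overlap, but the difference of 2.42 (SE 1.03) did not pass the test (adjusted p 0.0931). Sprr4 went the other way, from 121.89, 184.53 and 125.85 TPM to 71.59, 58.49 and 109.63 TPM. Its groups did not overlap either, and the log2 fold change of −0.87 (SE 0.49) had an adjusted p of 0.196.

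Lce3 genes, which are known for their low level in resting skin and their induction after injury of the epidermis, were all called higher (6 of 6). The calls of Lce3a and Lce3b were lost in some fits with a mouse left out. Lce3c was at 0.69, 2.35 and 2.33 TPM in syngeneic IgG mice and at 194.1, 388.72 and 141.11 TPM in GVHD IgG mice (log2 fold change 6.38, SE 1.46, adjusted p 0.00735). Lce3e went from 0.16, 0.42 and 0.0 TPM to 137.63, 157.98 and 100.22 TPM (6.79, SE 1.39, adjusted p 0.00395). Lce3f went from 0.15, 0.0 and 0.0 TPM to 166.88, 278.03 and 131.46 TPM (7.45, SE 1.46, adjusted p 0.0033). All 3 genes were highest in GVHD IgG mouse 2, and no syngeneic IgG mouse reached the lowest GVHD IgG value. Summed over the 6 genes, the level was 2.16 ± 1.01 TPM in syngeneic IgG and 786 ± 366 TPM in GVHD IgG mice. Near copies differ in length, so this sum still depends in part on how reads were split among them.

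Of the 14 Lce1 genes, which encode the LCE proteins of resting epidermis, 3 were higher, 1 was lower and 10 were not called. The background was 6.84% of all genes higher and 17.9% lower. On the log2 scale 12 Lce1 genes lay above 0, with a median of 0.67 against −0.33 for all genes. Lce1g, of low level in syngeneic skin, went from 6.3, 8.96 and 7.85 TPM to 360.45, 56.05 and 120.52 TPM (log2 fold change 3.98, SE 0.80, adjusted p 0.00363). Lce1h and Lce1k were also called (1.93 and 2.06, adjusted p 0.0438 and 0.0455), though not in the fit of the compared groups alone, without the filter, or without any single mouse of these groups other than GVHD IgG mouse 2. The abundant Lce1a1 was at 409.58, 395.63 and 487.64 TPM in syngeneic IgG mice and at 1922.61, 203.55 and 593.95 TPM in GVHD IgG mice. Its GVHD values lie on both sides of the syngeneic ones (0.52, SE 0.60, adjusted p 0.53), and so do those of Lce1b, at 307.71, 273.28 and 379.33 TPM against 1119.25, 109.48 and 343.02 TPM (0.13, SE 0.59, adjusted p 0.878). Lce1m, the most abundant Lce1 gene in syngeneic skin, was at 852.04, 654.51 and 1024.73 TPM there and at 592.86, 15.28 and 143.97 TPM in GVHD IgG mice (−2.89, SE 0.95, adjusted p 0.0377). All its GVHD IgG values were lower, but the call was lost without any single mouse of these groups other than GVHD IgG mouse 1, and without GVHD IgG mouse 2 the difference was −1.50 (adjusted p 0.177). Within each mouse, the ratio of Lce1g to Lce1m was 0.00739 to 0.0137 in syngeneic IgG and 0.608 to 3.67 in GVHD IgG mice. As a ratio of a gene called higher to one called lower in the same mice, it is no further support for either call.

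The filaggrin-type genes were divided as well. Flg, which encodes profilaggrin, was at 41.83, 101.38 and 52.05 TPM in syngeneic IgG mice and at 1171.16, 97.35 and 355.92 TPM in GVHD IgG mice. The groups overlapped, since GVHD IgG mouse 2 was below the highest syngeneic mouse, and the log2 fold change of 2.49 (SE 0.87, adjusted p 0.0463) lost its call in the fit of the compared groups alone (adjusted p 0.075) and without any mouse of these groups other than GVHD IgG mouse 2 (range 1.61 to 3.39). Flg2, its relative that is needed for cell cohesion in the outermost layers, fell: 698.21, 645.0 and 664.19 TPM in syngeneic IgG mice against 433.66, 6.76 and 129.8 TPM (−3.14, SE 1.02, adjusted p 0.0355). This call too was lost without any single mouse of these groups other than GVHD IgG mouse 1. Without GVHD IgG mouse 2 the difference was −1.49 (adjusted p 0.148), and in the fit of the compared groups alone the adjusted p was 0.126. The ratio of Flg to Flg2 within a mouse was 0.0599 to 0.157 in syngeneic IgG and 2.70 to 14.4 in GVHD IgG mice, with no overlap. This pair sets a gene called higher over one called lower in the same mice, so the separation is no further support for either call. Rptn, which encodes repetin and is of low level in resting skin, went from 2.65, 5.98 and 2.55 TPM to 293.44, 100 and 210.55 TPM (5.36, SE 1.17, adjusted p 0.00561). Hrnr, which encodes hornerin, was at 8.40 to 9.25 TPM in syngeneic IgG and 6.68 to 86.1 TPM in GVHD IgG mice (1.57, SE 0.65, adjusted p 0.0853).

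Of Lor, Ivl, Kprp and Crct1, 0 were called in limma, and 0 had an unadjusted p under 0.05 (39.8% of all genes did). Lor, which encodes loricrin, was at 1080.62, 1017.85 and 1452.96 TPM in syngeneic IgG mice and at 3154.0, 163.63 and 735.03 TPM in GVHD IgG mice, so that one mouse lay above and 2 below all syngeneic values. Its log2 fold change was −0.69 (95% interval −2.21 to 0.83, adjusted p 0.481), an interval that holds both a fall and a rise. Kprp, a keratinocyte proline-rich protein, was at 121.25, 113.62 and 124.6 TPM against 269.47, 32.59 and 98.46 TPM (−0.32, SE 0.47, adjusted p 0.62). Crct1, which encodes a small cysteine-rich protein, was at 410.65, 454.99 and 470.64 TPM against 1154.62, 438.46 and 462.91 TPM (0.47, SE 0.47, adjusted p 0.462). Lce6a, at 65.76, 64.31 and 74.76 TPM against 316.5, 16.43 and 99.22 TPM, was alike in its spread (0.25, SE 0.66, adjusted p 0.791). In all 4 of these named genes GVHD IgG mouse 1 was the highest and mouse 2 the lowest of the group. Without mouse 1, Lor and Kprp were called lower (−1.75 and −1.06, adjusted p 0.0336 and 0.037), and without mouse 2, Lce6a was called higher (1.37, adjusted p 0.0347).

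**Figure D3:**
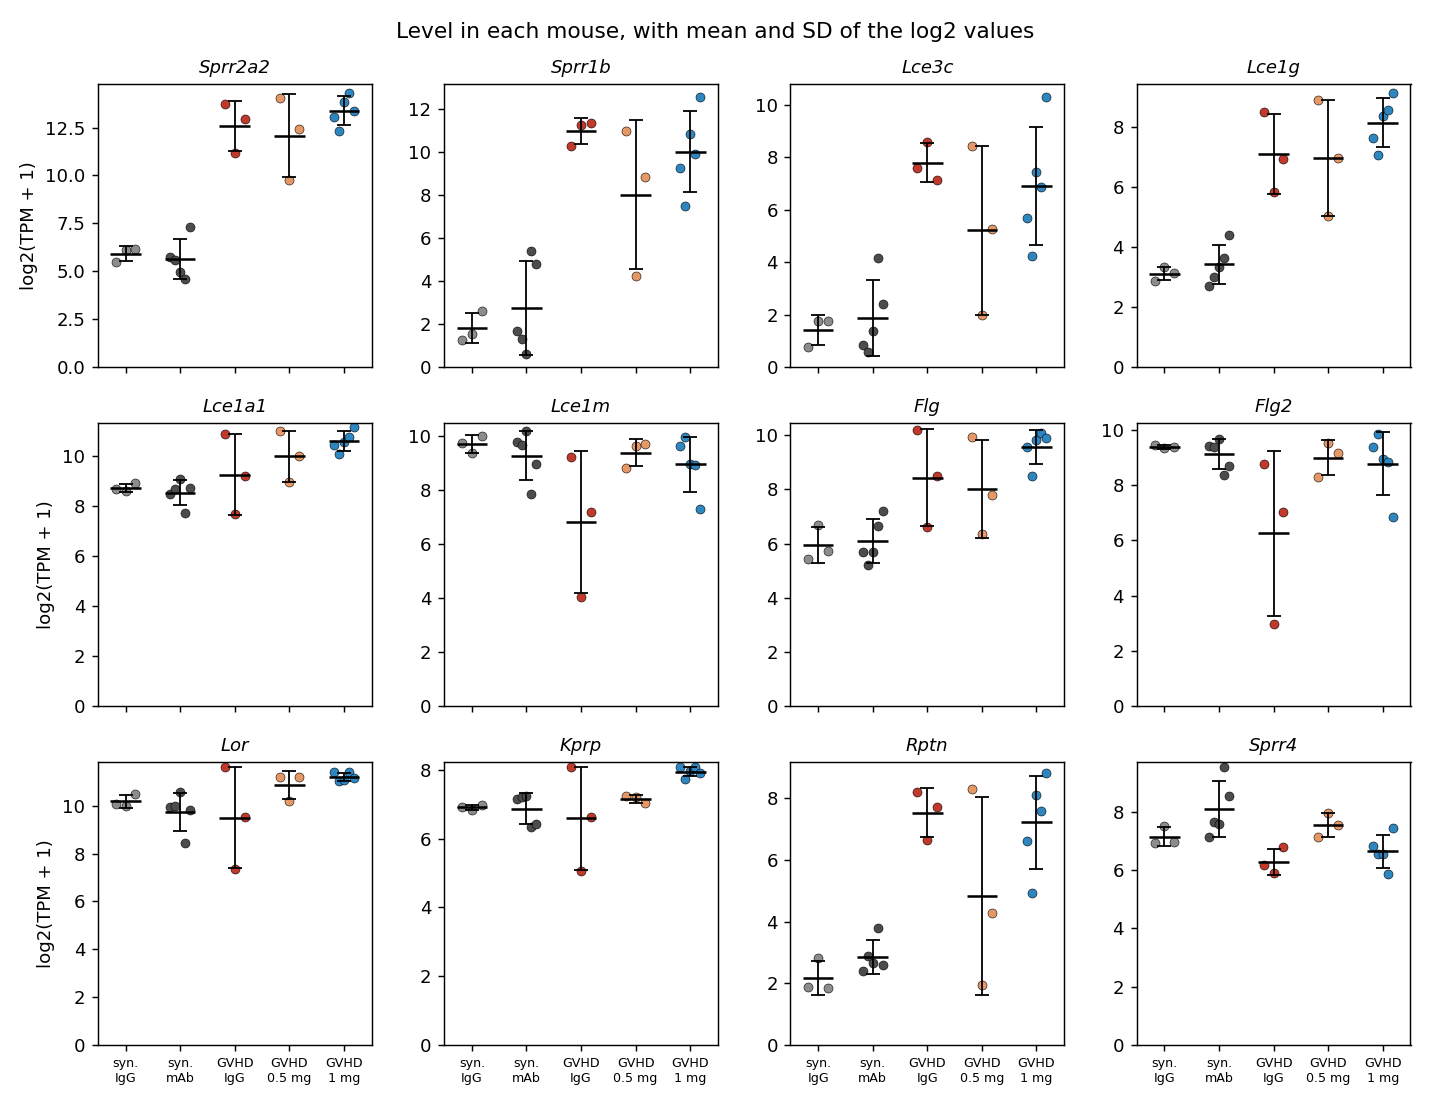
Level of 12 members in each mouse, as log2(TPM + 1), with the mean and SD of the log2 values of each group. Sprr2a2, Sprr1b, Lce3c and Lce1g separate GVHD IgG from syngeneic IgG mice, the GVHD IgG values of Lor, Kprp, Lce1a1 and Flg2 are spread widely, and those of Kprp and Lor at 1 mg lie close together.

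The comparison of the GVHD 1 mg group with syngeneic mAb mice asked the same question under the mAb, in mice that share none with the comparison above. Most Lce1, Lce3 and Sprr2 genes were higher. Of 43 members 35 were higher and 1 lower, against 7.99% and 28.3% of all genes, with a median of 3.04 for the members and −0.32 for all genes. The groups did not overlap for 33 members that were higher, against 5.96% of all genes, and for 0 that were lower (20.6%). By family, 12 of 14 Lce1, 5 of 6 Lce3 and 10 of 11 Sprr2 genes were higher, with Lce6a, Lor, Kprp, Crct1, Sprr1b, Flg, Hrnr and Rptn, and Sprr4 was lower. Of the 36 calls 26 held under every alternative, and the count of higher members was 27 without 1 mg mouse 3 or without 1 mg mouse 5 and 32 without the 2 syngeneic mAb mice high in hair keratins.

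Sprr2a2 again stood at a level far from that of syngeneic skin. It was at 51.7, 47.52, 30.48, 23.45 and 155.89 TPM in syngeneic mAb mice and at 8467.94, 5150.4, 14361.5, 20278.1 and 10675.82 TPM at 1 mg, a log2 fold change of 7.74 (SE 0.70, adjusted p 5.01e-06). Sprr2a3 (7.02, SE 0.81, adjusted p 4.45e-05), Sprr2h (4.64, SE 1.30, adjusted p 0.0123) and Sprr1b (7.26, SE 1.21, adjusted p 0.000567) were higher as well. Sprr1b was at 2.21, 1.46, 0.5, 40.69 and 26.13 TPM against 610.73, 175.36, 1836.94, 948.47 and 6077.91 TPM, and the groups did not overlap. In syngeneic mice, the 2 high values of Sprr1b were those of mice 4 and 5, which were also the 2 high in hair keratins. The same held for Sprr1a, at 351.03, 419.52, 439.32, 4598.47 and 2998.44 TPM, which was not called (0.97, SE 0.80, adjusted p 0.34) with 1 mg values of 1558.24, 598.73, 2284.94, 1542.59 and 7972.46 TPM. Without mice 4 and 5 Sprr1a was called higher (2.26, adjusted p 0.023). Sprr4, at 140.74, 199.61, 190.62, 751.88 and 374.5 TPM against 112.26, 94.59, 92.37, 58.24 and 174.1 TPM, was highest in mice 4 and 5 as well and was lower at 1 mg (−1.44, SE 0.38, adjusted p 0.00849), a call lost with median-ratio factors (−1.05, adjusted p 0.0578). Whether hair follicle cells had a part in these values was not tested.

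Lce3 genes differed less evenly among 1 mg mice. Lce3c was at 0.8, 0.47, 1.57, 16.87 and 4.23 TPM in syngeneic mAb mice and at 50.89, 17.91, 174.68, 114.64 and 1278.41 TPM at 1 mg (log2 fold change 5.05, SE 1.13, adjusted p 0.00346). Mouse 5 was far above the rest, and the lowest 1 mg mouse was just above the highest syngeneic one. Lce3e (5.91, SE 1.08, adjusted p 0.000981) and Lce3f (5.52, SE 1.13, adjusted p 0.002) had the same order of mice at 1 mg, with lowest values of 7.4 and 10.59 TPM and highest values of 702.73 and 999.84 TPM.

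Among Lce1 genes, Lce1a1 was at 362.3, 407.86, 540.59, 212.64 and 419.32 TPM in syngeneic mAb mice and at 1418.73, 1098.09, 1544.49, 1742.82 and 2318.39 TPM at 1 mg, with every 1 mg value higher (2.08, SE 0.47, adjusted p 0.00334). Lce1b (1.74, SE 0.45, adjusted p 0.00799) and Lce1g (4.73, SE 0.62, adjusted p 9.2e-05) did not overlap either. Lce1m was the exception, at 862.4, 802.26, 1149.95, 229.11 and 489.55 TPM against 789.18, 987.51, 491.04, 484.69 and 155.69 TPM (−0.32, SE 0.74, adjusted p 0.741), and so was Flg2, at 693.11, 671.73, 822.06, 331.36 and 418.56 TPM against 659.72, 933.67, 488.1, 461.58 and 114.87 TPM (−0.35, SE 0.79, adjusted p 0.743). In both, 1 mg mouse 5 was the lowest and mouse 2 the highest of the GVHD 1 mg group, and with median-ratio factors both differences were just above 0 (0.06 and 0.04).

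Lor was at 994.34, 1019.36, 1510.24, 342.05 and 906.41 TPM in syngeneic mAb mice and at 2692.41, 2101.8, 2172.9, 2706.71 and 2276.09 TPM at 1 mg. Every 1 mg value was higher, and the log2 fold change was 1.46 (SE 0.56, adjusted p 0.0494). This call was lost when values were scaled to pan-epidermal genes (1.07, adjusted p 0.0675) and without syngeneic mAb mice 4 and 5 (1.04, adjusted p 0.189). Kprp (1.09, SE 0.36, adjusted p 0.0287; 0.76, adjusted p 0.159, without those mice), Crct1 (0.96, SE 0.36, adjusted p 0.0485) and Lce6a (1.71, SE 0.51, adjusted p 0.0163; 1.63, adjusted p 0.0536, without those mice) were called with like margins, and scaling to pan-epidermal genes also ended the calls of Kprp (0.69, adjusted p 0.0582) and Crct1 (0.57, adjusted p 0.143). Leaving out single mice ended the call of Lor (any of the 10 but syngeneic mAb mouse 3), of Kprp (syngeneic mAb mice 4 and 5, and 1 mg mice 1, 3, 4 and 5) and of Crct1 (syngeneic mAb mice 1, 2 and 3, and 1 mg mice 1, 3, 4 and 5). Flg was at 50.9, 36.01, 49.95, 99.26 and 145.11 TPM against 766.02, 357.2, 901.33, 1083.84 and 954.79 TPM (3.49, SE 0.67, adjusted p 0.00139), without overlap. Rptn was at 4.25, 6.34, 5.27, 12.74 and 4.95 TPM against 97.28, 29.14, 275.51, 192.81 and 454.55 TPM (4.36, SE 0.91, adjusted p 0.00215).

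**Figure D4:**
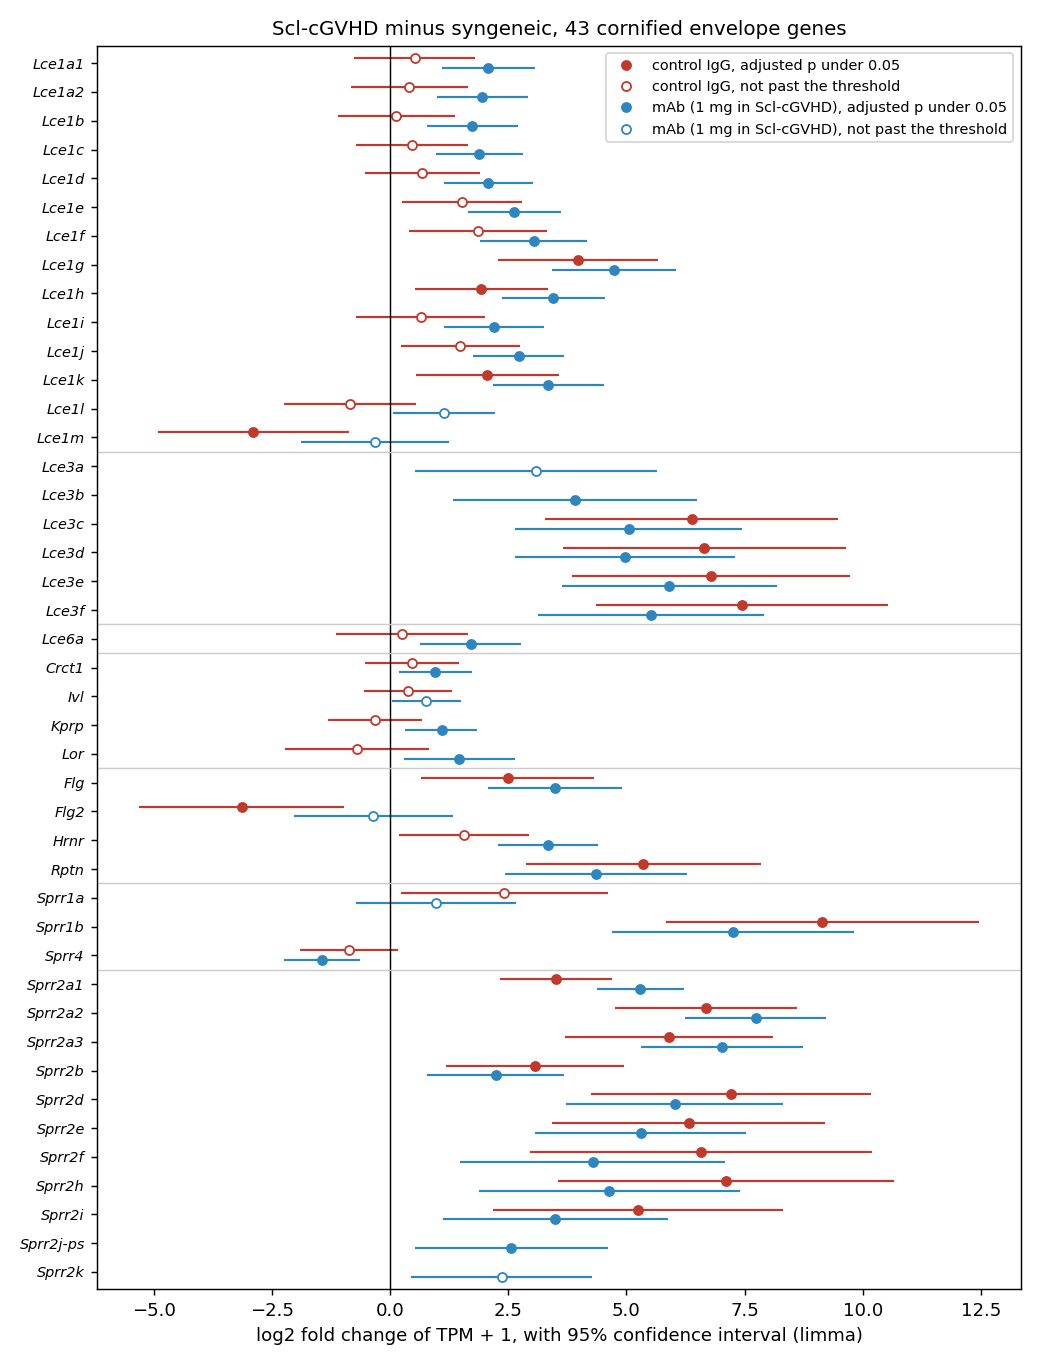
Log2 fold change of TPM + 1 of the 43 members tested, with 95% confidence intervals from limma, for GVHD against syngeneic mice under control IgG (red) and under the mAb at 1 mg (blue). Filled points have an adjusted p under 0.05, and red points are left out for the 4 members listed at 0 in all syngeneic IgG mice. Blue points lie above red ones for all 14 Lce1 genes and Lor, and below them for Lce3c to Lce3f.

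More members were called under the mAb than under IgG, with groups of 5 against groups of 3, so the difference between these comparisons was tested itself. It is the response to 1 mg mAb in GVHD mice minus the response to the mAb in syngeneic mice, with the syngeneic dose not given in the labels. Of the 43 members 0 were called in limma (0% of all genes), 8 had an unadjusted p under 0.05, all of them higher (3.56% of all genes in either direction), and the median difference was 1.00 against −0.01 for all genes. In syngeneic skin no difference between mAb and IgG was detected: 0 members were called against syngeneic IgG (0% of all genes), 1 had an unadjusted p under 0.05 (0.703% of all genes), and the median was 0.02.

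The comparison of GVHD 1 mg with GVHD IgG asked whether the antibody changed these genes in the disease. No member was called in limma, as was the case for all genes (0%). With no adjustment 16 members had a p under 0.05, all higher, against 4.62% of all genes higher, and for 0 members did the groups not overlap (1.13% of all genes higher, 2.78% lower). All 14 Lce1 genes were above 0 on the log2 scale, with log2 fold changes of 1.00 to 2.14 and 10 of them at an unadjusted p under 0.05. All 6 Lce3 genes were below 0 on that scale, at −1.43 to −0.87, with adjusted p of 0.834 to 0.921, but their direction depends on the scale, since their mean TPM at 1 mg was 1.30 to 1.94 times that of GVHD IgG (327 against 241 TPM for Lce3c). Without 1 mg mouse 2 the log2 values of Lce3c and Lce3e were −0.21 and −0.24. Sprr2a1, Sprr2a2 and Sprr2a3, near copies that share reads, were above 0 (1.41, 0.77 and 0.66), and the other 8 Sprr2 genes below it, at −1.69 to −0.69. Without GVHD IgG mouse 2, Sprr2a2 was at 0.05 and Sprr2a3 at −0.05. In the same setting Lce1a1 was at 0.56, Lce1b at 0.58, Lce1g at 0.43 and Lce1m at 0.75. None of these differences passed the test, and the intervals are wide: that of Lce3c (−0.87) runs from −3.65 to 1.90 and that of Sprr2a2 (0.77) from −0.94 to 2.48.

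The GVHD IgG values of several members were spread widely, and the difference in spread was not tested. Lor was at 3154.0, 163.63 and 735.03 TPM in GVHD IgG mice and between 2101.8 and 2706.71 TPM in all 5 mice at 1 mg (log2 fold change 1.71, SE 0.64, adjusted p 0.376). Kprp, with the smallest p of the members, was between 214.5 and 269.98 TPM at 1 mg against 32.59 to 269.47 TPM in GVHD IgG mice (1.36, SE 0.42, unadjusted p 0.0048, adjusted p 0.301). For Flg2 (2.53, SE 0.91, adjusted p 0.358), Lce1m (2.14, SE 0.85, adjusted p 0.406) and Lce6a (1.67, SE 0.59, adjusted p 0.348) the estimates were as large. In Lor all 5 mice at 1 mg lay below GVHD IgG mouse 1, and in Kprp, Flg2, Lce1m and Lce6a at least 1 lay below that mouse. Without that mouse 17 members were called higher, among them 11 Lce1 genes, Lor (2.77, adjusted p 0.0102), Kprp (2.11, adjusted p 0.00432), Lce6a (2.65, adjusted p 0.00875) and Flg2 (3.78, adjusted p 0.0241), and without any other single mouse 0 were. In that setting 2.07% of all genes were called higher and 2.02% lower. When GVHD IgG mouse 2 was left out instead, the differences were smaller. They were 0.64 for Lor, 0.60 for Kprp, 0.88 for Flg2, 0.75 for Lce1m and 0.55 for Lce6a.

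At 0.5 mg against GVHD IgG, 0 members were called in limma, against 0.0122% of all genes called higher and 0.0428% lower. With no adjustment 7 members had a p under 0.05 (14.5% of all genes), 4 of them higher. Lce3 genes were below 0 throughout (−3.10 to −2.57), as were 10 of 11 Sprr2 genes, while 13 of 14 Lce1 genes were above 0. These values depended on single mice: Lce3c was at −0.94 without 0.5 mg mouse 2 and at −4.16 without 0.5 mg mouse 1. Sprr2a2 and Sprr2a3 were above 0 without 0.5 mg mouse 2 (0.64 and 0.83). The mean TPM at 0.5 mg was 1.26 times that of GVHD IgG for Sprr2a3 and 0.987 times for Sprr2a2. Sprr4, at 141.69, 252.13 and 188.69 TPM against 71.59, 58.49 and 109.63 TPM, was the single member whose groups did not overlap (1.28, SE 0.49, adjusted p 0.237, with 4.25% of all genes higher and 6.88% lower without overlap). Flg2, at 310.69, 730.83 and 575.62 TPM, had a log2 fold change of 2.74 (SE 1.02, adjusted p 0.229). Without GVHD IgG mouse 1 there were 7 members called higher (Flg2, Kprp, Lce1b, Lce1l, Lce1m, Lce6a and Lor), with 1.66% of all genes called higher and 3.33% lower in that setting, and without 0.5 mg mouse 1 Rptn was called lower (−4.42, adjusted p 0.0295). Between the doses, 0 members were called (0% of all genes), 1 had an unadjusted p under 0.05 (5.29% of all genes) and 40 of 43 were above 0 at 1 mg, with a median of 0.90. These comparisons share the GVHD IgG or the 1 mg mice and are not independent.

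**Figure D5:**
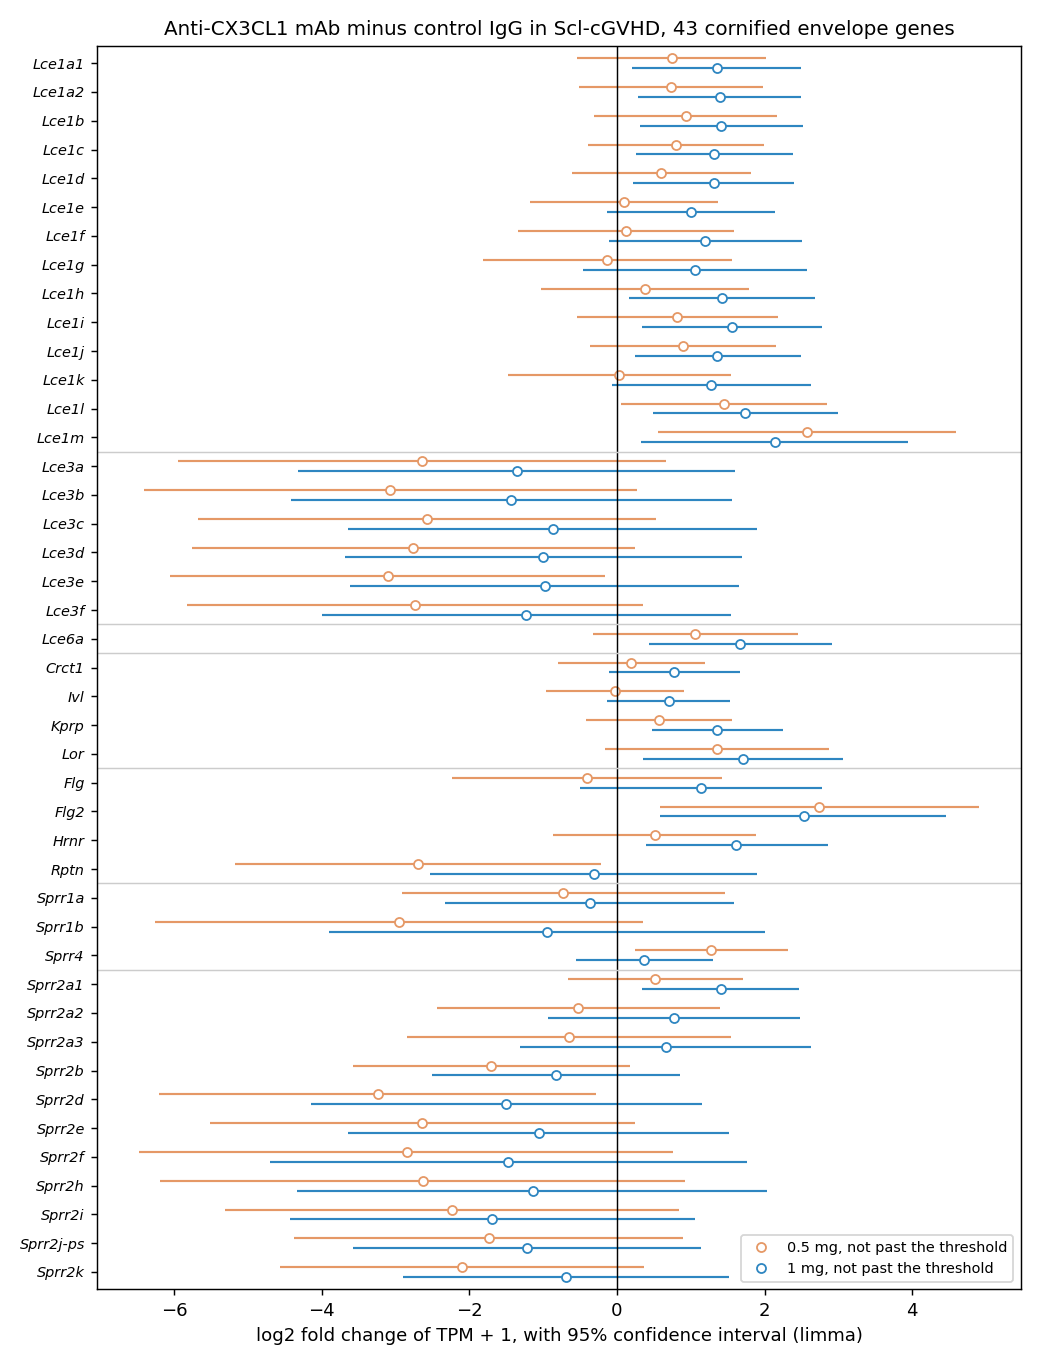
Log2 fold change of TPM + 1 of the 43 members tested for 0.5 mg (orange) and 1 mg mAb (blue) against GVHD IgG, with 95% confidence intervals from limma, by family. No point has an adjusted p under 0.05, all 14 Lce1 genes lie above 0 at 1 mg, and all 6 Lce3 genes lie below 0 at both doses on this log2 scale, although their mean TPM at 1 mg was above that of GVHD IgG.

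Single mice lay at the ends of the range for some families and not for others. GVHD IgG mouse 2 was the lowest of the 11 GVHD mice in 12 of 14 Lce1 genes, yet it was the highest of them in 3 of 11 Sprr2 genes. Its summed neutrophil markers (7 genes, S100a8 and S100a9 among them) were at 35881 TPM, against 1026 and 4265 TPM in the other GVHD IgG mice. Stressed keratinocytes also express S100a8 and S100a9, so this sum does not measure neutrophils alone, in this or any other mouse. The pan-epidermal markers of GVHD IgG mouse 2 were at 10594 TPM, against 17721 and 17585 TPM in the others of its group. GVHD 1 mg mouse 5 was the highest GVHD mouse in 9 of 14 Lce1 genes and also in Lce3c, Lce3e, Lce3f, Sprr1a and Sprr1b, with neutrophil markers at 6392 TPM and pan-epidermal markers at 26961 TPM. GVHD 0.5 mg mouse 2 was the lowest GVHD mouse in 9 of 11 Sprr2 genes, and its neutrophil markers, at 41.8 TPM, lay below those of every syngeneic mouse. In that mouse 13 of the 44 members were above every syngeneic mouse, against 33 and 39 in the other 0.5 mg mice and 35 to 40 at 1 mg. In GVHD IgG mice 1, 2 and 3 the counts were 40, 21 and 32, and 12 members of mouse 2 were below every syngeneic mouse. The share of all genes was not counted for single mice. The 7 members that were higher in every GVHD mouse of any treatment than in every syngeneic mouse were Lce1g, Lce3e, Sprr2a1, Sprr2a2, Sprr2a3, Sprr2d and Sprr2e, against 1.9% of all genes tested.

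Markers of other cells moved with these differences. From syngeneic IgG to GVHD IgG, summed neutrophil markers went from 67.2 to 78.1 TPM to 1026 to 35881 TPM with 5 of 7 genes called higher, and macrophage markers from 1205 to 1444 TPM to 3394 to 7704 TPM (3 of 7 higher). T cell markers went from 29.2 to 32.0 TPM to 39.9 to 174 TPM (5 of 7 higher). Dermal fibroblast markers went from 6756 to 10746 TPM down to 277 to 2539 TPM (6 of 8 lower), and pan-epidermal markers, which include the basal keratins Krt5 and Krt14, from 7984 to 8759 TPM up to 10594 to 17721 TPM (2 of 16 higher, 3 lower). The 17 hair shaft and inner root sheath genes summed to 83.0 to 2940.3 TPM in syngeneic IgG and to 7.59 ± 2.35 TPM in GVHD IgG mice, with 0 called and Krt31, Krt33a, Krt33b, Krt34, Krt35 and Krt72 at 0 in all 3 GVHD IgG mice. Of the neutrophil markers Ly6g was at 0 in all 3 syngeneic IgG mice. The neutrophil sums include S100a8 and S100a9, which stressed keratinocytes express too, so the sums do not measure neutrophils alone. Skeletal muscle markers went from 17319 to 28423 TPM down to 5335 to 11149 TPM (4 of 10 lower), adipocyte markers from 3469 to 4217 TPM to 97.7 to 3983 TPM (4 of 6 lower), and sebaceous gland markers from 1706 to 2429 TPM to 4025 to 5676 TPM (1 of 9 higher, 6 lower). The rise of the sebaceous sum came from Fabp5, whose mean was 416 TPM in syngeneic IgG and 4234 TPM in GVHD IgG mice. The median log2 fold change of the sebaceous list was −2.93, and Far2 went from a mean of 109 to 0.0833 TPM. From syngeneic mAb to GVHD 1 mg, dermal fibroblast markers went from 3934 to 11907 TPM to 231 to 1085 TPM (7 of 8 lower) and adipocyte markers from 1789 to 3626 TPM to 48.2 to 244 TPM (6 of 6 lower). T cell markers went from 18.6 to 41.8 TPM to 36.1 to 112 TPM (6 of 7 higher), neutrophil markers from 57.1 to 95.1 TPM to 125 to 6392 TPM (2 of 7 higher), and pan-epidermal markers from 7522 to 9804 TPM to 13893 to 26961 TPM (5 of 16 higher, 1 lower). Macrophage (3 of 7 higher), sebaceous gland (1 of 9 higher, 7 lower), hair (2 of 17 lower) and skeletal muscle markers (0 of 10 called) were counted there too. The part of these shifts in the levels of the members was not tested. Scaling to pan-epidermal genes used the mean log2 TPM of the 16 genes and not their sum. Its factors were 0.8641, 0.9328 and 0.884 in syngeneic IgG mice and 1.107, 0.5766 and 1.001 in GVHD IgG mice. In GVHD IgG mouse 2 the factor lay below the syngeneic IgG factors, although its sum lay above theirs. With values scaled in this way, 23 members were called higher and 2 lower in GVHD IgG, against 5.9% and 12.8% of all genes.

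Genes that act on the envelope were counted from lists of the pathway, for which 6.84% of all genes higher and 17.9% lower in GVHD IgG mice, and 7.99% and 28.3% under the mAb, are the background. Of 19 genes of cross-linking and processing, 4 were higher and 1 lower in GVHD IgG mice, with a median of 0.16 against −0.33 for all genes, and 7 were higher and 0 lower under the mAb. Those named are Cnfn (cornifelin, an envelope protein; 2.76, SE 0.85, adjusted p 0.0282), Asprv1 (the protease that cuts profilaggrin; 1.45, SE 0.45, adjusted p 0.0285), Tgm1 (the membrane-bound transglutaminase of keratinocytes; 1.38, SE 0.41, adjusted p 0.0232) and Tgm5, another transglutaminase (−0.99, SE 0.27, adjusted p 0.0148). Tgm1 was at 32.2 ± 4.83 TPM in syngeneic IgG and 86.9 ± 20.3 TPM in GVHD IgG skin, and Tgm5 at 14.5 ± 3.37 and 7.05 ± 2.86 TPM. Of 12 barrier lipid enzymes 3 were higher and 1 lower. Among them were Ugcg, which makes glucosylceramide (0.93, adjusted p 0.00377), and Sdr9c7 (0.94, adjusted p 0.0221), both higher, and Elovl4, which elongates the fatty acids of barrier ceramides (−1.34, adjusted p 0.00586), which was lower. Under the mAb 6 were higher and 0 lower. Of 11 suprabasal keratin and desmosome genes 1 was higher (Dsg1b, 1.30, adjusted p 0.0356) and 1 lower (Dsg1a, −1.82, adjusted p 0.0344), both desmogleins, and 4 were higher and 0 lower under the mAb.

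Other genes of the same cluster on chromosome 3 were counted as well. Of 19 tested, 4 were higher and 1 lower in GVHD IgG mice, against 6.84% and 17.9% of all genes, with a median of 0.03, and 5 were higher and 3 lower under the mAb. The largest were S100a9 (6.49, SE 1.63, adjusted p 0.0112) and S100a8 (6.22, SE 1.69, adjusted p 0.0165), which neutrophils as well as stressed keratinocytes express, and S100a1 was lower (−1.08, adjusted p 0.00773).

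Most genes of epidermal stress were called higher in both comparisons, and most of the tested cytokines that act on keratinocytes in GVHD IgG mice. Of 10 stress keratins and alarm genes, 8 were higher in GVHD IgG mice (median 4.41) and 7 under the mAb, with none lower. Krt6b (12.6 ± 4.82 to 3327 ± 838 TPM, log2 fold change 7.97, adjusted p 0.00156) and Krt16 (22.0 ± 8.43 to 3689 ± 975 TPM, 7.35, adjusted p 0.00163) are keratins of wounded and hyperproliferative epidermis. Il1f6, the interleukin-36 alpha gene, went from 0.617 ± 0.0814 to 32.9 ± 15.7 TPM (4.30, adjusted p 0.000235), and Il1f9, that of interleukin-36 gamma, from 17.7 ± 1.69 to 106 ± 21.1 TPM (2.5, adjusted p 0.000787). Of 18 cytokine and growth factor genes listed, 14 passed the filter on low values and were tested. Of these 14, 8 were higher and 0 lower in GVHD IgG mice (median 2.15) and 5 were higher and 0 lower under the mAb. Those named in GVHD IgG mice are Il24 (5.05, adjusted p 0.0029), Ifng (2.09, adjusted p 0.0031), Hbegf (3.51, adjusted p 0.00377) and Ereg (1.21, adjusted p 0.0046).

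Of 26 transcription factors of terminal differentiation, 6 were higher and 5 lower in GVHD IgG mice, with a median of 0.02, and 3 were higher and 3 lower under the mAb. Fosl1 and Junb, members of the Fos and Jun families that bind AP-1 motifs, were higher (3.60, SE 0.62, adjusted p 0.00156, and 2.21, SE 0.47, adjusted p 0.00474). Gata3 was lower (−2.33, SE 0.48, adjusted p 0.00391), at 103 ± 2.63 TPM in syngeneic IgG and 24.4 ± 17.9 TPM in GVHD IgG mice. In 1 mg against GVHD IgG, 0 genes of these 7 lists were called in limma, with Fosl1 at −1.77 (adjusted p 0.308) and Gata3 at 1.21 (adjusted p 0.358).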

How the data were processed

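Skin mRNA of 19 mice was measured. The authors made stranded mRNA libraries, read as pairs of 100 bases, and per the labels used Trimmomatic, FastQC, STAR 2.5.2b with GRCm38, and RSEM 1.2.31. The deposited values are TPM, estimated by the authors with RSEM for 50686 genes, without counts or read depth per mouse. A few abundant transcripts in a mouse lower all its other TPM values. The deposited alignment summary holds read counts and percent mapped per library.

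The 16350 genes that reached 1 TPM in 3 or more mice were tested as log2(TPM + 1), pseudocount 1, with limma 3.58.1 in R 4.3.3 (variance trend, robust prior, two-sided), all 5 groups in a single fit, Benjamini-Hochberg adjustment within each of 7 comparisons, threshold 0.05. The fit was tested on simulated data. Values in every mouse and tests are given for the 3 members of highest mean TPM in each family and the member with the smallest p in GVHD IgG against syngeneic IgG, and tests for up to 4 genes per pathway list with the smallest p there, some of which are not reported here. Hrnr, Sprr2k, Lce1h, Lce1k and Sprr2a1 were added after their values were seen, as were the members named where a mouse was left out. The members and all lists were chosen with earlier results of these data known.

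Alternatives were median-ratio factors, scaling to pan-epidermal genes, a pseudocount of 0.1, no filter, a minimum of 5 TPM, the compared groups alone and each mouse left out. Leaving out syngeneic mAb mice 4 and 5 together was chosen after seeing the data. Promoters came from RefSeq (GRCm38.p6). Coding sequences and windows came from GENCODE, whose release need not be that of the authors. Crct1, Kprp, Lce1f and Sprr2j-ps had no promoter entry. The labels name separate mice, so p-values measure the spread between animals.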

Additional observations from a re-analysis of the deposited data

Results flagged for a closer look

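Of 40 groups of 5 mice (20 named members, syngeneic mAb and GVHD 1 mg), 11 held a mouse farther from the rest than Dixon's criterion allows. The criterion was applied to TPM and not to the log2 scale of the tests, and all 11 were the highest mouse of their group. Chance gives about 1 in 20 only for normally distributed values, so the count cannot be set against that rate. Whether these mice stand apart on the log2 scale was not tested. The mice and genes are not independent, since 3 mice account for all 11. GVHD 1 mg mouse 5 stood above the rest of its group in Crct1 (2162 TPM), Lce3c (1278 TPM), Lce3e (703 TPM), Lce3f (999.8 TPM), Sprr1a (7972 TPM) and Sprr1b (6078 TPM). Syngeneic mAb mouse 4, the highest in hair keratins, stood above its group in Lce3c (16.9 TPM), Rptn (12.7 TPM) and Sprr2h (108 TPM). Syngeneic mAb mouse 5 stood above it in Sprr2a2 (156 TPM) and Sprr2a3 (61.1 TPM). The groups of 3 mice are too small for this criterion.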

How the results depend on the processing

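In GVHD IgG against syngeneic IgG, the count of higher members was 19 to 23 under the 6 alternatives in scaling, filter, pseudocount and samples, and 14 to 22 with each mouse left out. The count of lower members (2) became 1 with median-ratio factors, 0 without the filter, 0 with the compared groups alone, and 0 to 5 with each mouse left out. In GVHD 1 mg against syngeneic mAb, higher members numbered 31 to 37 under the alternatives and 27 to 36 with each mouse left out, and the 1 lower member became 0 with median-ratio factors. Against GVHD IgG, 1 mg gave 0 higher members under every alternative and 0 to 17 with each mouse left out, and 0.5 mg gave 0 to 7 higher and 0 to 1 lower. Counts between doses, in syngeneic mice and for the difference of responses stayed at 0.

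Some small differences changed sign. With median-ratio factors Kprp was 0.06 in GVHD IgG against syngeneic IgG, and Flg2 (0.04) and Lce1m (0.06) in GVHD 1 mg against syngeneic mAb. Scaled to pan-epidermal genes, Sprr4 was −0.14 at 1 mg and Crct1 −0.06 at 0.5 mg against GVHD IgG. With each mouse left out, GVHD IgG against syngeneic IgG ranged from −1.06 to 0.44 for Kprp, −1.75 to 0.38 for Lor, −0.30 to 1.31 for Lce1a1, −0.71 to 0.96 for Lce1b and −0.73 to 1.37 for Lce6a. GVHD 1 mg against syngeneic mAb ranged from −0.62 to 0.13 for Flg2 and −0.68 to 0.09 for Lce1m. The 1 mg group against GVHD IgG ranged from −0.75 to 0.26 for Rptn, −0.88 to 0.05 for Sprr1a and −0.05 to 1.19 for Sprr2a3. The 0.5 mg group ranged from −0.18 to 0.65 for Crct1, −1.36 to 0.48 for Flg, −0.19 to 1.31 for Kprp, −0.05 to 1.56 for Lce1a1, −1.09 to 0.83 for Lce1g, −0.06 to 2.03 for Lce6a, −1.27 to 0.07 for Sprr1a, −1.51 to 0.64 for Sprr2a2 and −1.94 to 0.83 for Sprr2a3. The cause was not tested.

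No paired analysis was possible because the labels give no replicate number that groups share. TPM gives no depth per mouse, so low values carry no counting interval, and groups of 3 mice limit the precision.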

Other observations

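Sprr2g, which lies among the Sprr2 genes but is annotated as a polymorphic pseudogene and so was not a member, was called higher in both comparisons of GVHD with syngeneic skin. Its level was 0.0833 ± 0.144 TPM (SD) in the 3 syngeneic IgG mice and 0.344 ± 0.280 TPM (n = 5) in syngeneic mAb mice, and 159.9 ± 105 TPM (n = 3) in GVHD IgG, 66.2 ± 85.8 TPM (n = 3) at 0.5 mg and 145 ± 170.0 TPM (n = 5) at 1 mg. The log2 fold change was 6.94 in GVHD IgG against syngeneic IgG (limma adjusted p 0.00215) and 5.61 in GVHD 1 mg against syngeneic mAb (adjusted p 0.000733). It was chosen after its values were seen.

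Within each mouse, the ratio of Sprr2d, whose promoter holds the octamer, to Sprr2a2, whose promoter does not, was 0.0263 to 0.0367 in syngeneic IgG and 0.0138 to 0.0404 in syngeneic mAb mice. It was 0.0157 to 0.359 in GVHD IgG, 0.00429 to 0.0305 at 0.5 mg and 0.00418 to 0.162 at 1 mg, so that GVHD mice lay on both sides of the syngeneic range. This pair too was chosen after its values were seen.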
